A study of Mus musculus with 6 samples.

Results

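The genes described here encode the 14-3-3 proteins and a small group of scaffolds and cofactors that handle RAF kinases, as measured in primary mouse cortical astrocytes. They are 10 genes chosen by name among the 55357 of the table: 6 of the 14-3-3 family (Ywhab, Ywhae, Ywhag, Ywhah, Ywhaq and Ywhaz), the scaffold gene Ksr1, and Shoc2, Ppp1cb and Pebp1. All 10 were in the table and all 10 passed the filter on low values. Astrocytes were cultured from the cortex of C57BL/6 embryos, shaken and replated, and harvested 48 hours after transfection with BRAF K499E (KE, 3 cultures). For its stained astrocytes, the paper describes a plasmid driving FLAG-tagged BRAF K499E from the CMV promoter, given with a GFP plasmid. It does not name the plasmid for the sequenced cultures. The comparison group was 3 nontransfected cultures of the same kind, labelled naive (NT). The CMV promoter is active in most cell types, so with that plasmid expression would not be restricted to astrocytes. No culture given an empty plasmid or BRAF WT was analysed here. BRAF KE and the transfection itself therefore cannot be told apart in any difference below.

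RAF kinases pass the signal from RAS to MEK and ERK, and 14-3-3 proteins are their main cytosolic partners. A 14-3-3 dimer grips phosphorylated serines on either side of the RAF kinase domain and holds the kinase folded and inactive. After RAS binding, a complex of SHOC2, MRAS and the catalytic subunit of protein phosphatase 1 (PP1) removes the phosphate at the inhibitory site, and 14-3-3 then bridges a pair of active RAF molecules. KSR1 is a RAF-like scaffold that brings RAF, MEK and ERK together, whereas PEBP1, also called RAF kinase inhibitory protein, keeps RAF from phosphorylating MEK. In brain, 14-3-3 proteins are abundant in neurons and glia, and the isoforms form both homodimers and heterodimers.

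Because the isoforms are paralogs, the first question was how far their transcripts can be told apart. Over their coding sequences, the 15 pairs of 14-3-3 genes were between 61.3% and 79% identical. Ywhag and Ywhah, which encode the gamma and eta isoforms, were the most alike pair (79% over 738 aligned bases), and Ywhae, which encodes epsilon, was in the pair least alike (61.3% with Ywhah). The longest run of identical bases between any 2 of the canonical transcripts was 30 bases, again in Ywhag and Ywhah. The stretch of 60 bases most alike in all 6 coding sequences is shown to make the paralogy visible. It was read 5′ to 3′ from GRCm39 with Gencode vM39, starting at base 34 of the coding sequence in Ywhaq and Ywhaz, base 37 in Ywhae, Ywhag and Ywhah, and base 40 in Ywhab. Capitals mark the 22 positions at which the isoforms are not all the same, and the other 38 are shared by all 6.
Ywhab: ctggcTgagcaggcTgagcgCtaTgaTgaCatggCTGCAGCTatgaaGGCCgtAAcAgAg
Ywhae: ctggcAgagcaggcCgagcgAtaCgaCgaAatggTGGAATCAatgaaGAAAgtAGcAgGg
Ywhag: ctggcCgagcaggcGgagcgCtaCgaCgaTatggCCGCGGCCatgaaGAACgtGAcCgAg
Ywhah: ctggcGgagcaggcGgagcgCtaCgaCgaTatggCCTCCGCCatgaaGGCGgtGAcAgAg
Ywhaq: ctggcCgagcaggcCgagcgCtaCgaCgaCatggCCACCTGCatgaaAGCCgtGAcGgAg
Ywhaz: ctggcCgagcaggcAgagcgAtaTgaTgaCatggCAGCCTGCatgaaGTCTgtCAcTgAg

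Even in this stretch, each isoform has a sequence of its own. Near-identical copies among the annotated transcripts of other genes were also sought. In the table, 12 other genes matched the transcript of Ywhaq, Ywhaz, Ywhah or Pebp1 with at least 95% identity over at least 200 bases. Of these, 11 are predicted genes or pseudogenes, and each had at most 0.184% of the normalized count of the gene it resembled. The exception was Cdk5rap2, whose annotation shares an identical stretch of 435 bases with Ywhaq, with means of 5144 in KE and 5105 in NT. Reads inside that stretch could be from either gene, so the level of Ywhaq is less certain than that of the others. No such annotated copy was found for Ywhab, Ywhae, Ywhag, Ksr1, Shoc2 or Ppp1cb, and unannotated copies were not sought.

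Values are the authors' normalized counts, from genes quantified with Salmon. It is not certain that they are counts divided by a single size factor per culture. In NT replicate 3, for example, low values were 0.9591 for Gm12428 and 0.9202 for Cnksr1. Depth was estimated at 24500000 to 34100000 reads per culture, with KE replicate 2 the least deeply sequenced. Braf, the transfected gene, was between 34933 and 40978 in the KE cultures and between 811 and 946 in the NT cultures, so the targeted gene and the labels match. Of 10 astrocyte markers, 7 were higher and 1 (Gja1) lower in KE, with a summed level of 194523 to 200354 in KE and 142104.5 to 150693 in NT, and S100b was scarce at 11.8 to 31.5. The 10 markers of microglia and macrophages were all lower in KE, with a summed level of 4073 to 5485 against 32016 to 36646 in NT and no marker at 0. Of the oligodendrocyte lineage markers 7 of 8 were tested and all 7 were lower in KE, or 4 without KE replicate 1, KE replicate 3 or NT replicate 2. Of the neuron list 1 was higher and 2 lower of 6 tested, and of the fibroblast and vascular list 1 higher and 2 lower of 5, where 51.3% of all tested genes were called in either direction. Summed levels were 27105 to 31875 in KE and 35920.5 to 36217 in NT for the oligodendrocyte lineage list, 6704 to 7116 and 8737 to 9395 for the neuron list, and 1107 to 1275 and 1193 to 1369 for the fibroblast and vascular list. The defining markers Mog, Rbfox3, Slc17a7 and Cldn5 were low in both groups, with the highest value of any culture at 15.7, and below the mean of 10 required for testing. In bulk RNA, fewer cells of a type and less RNA per cell cannot be told apart, and the part of these shifts in cell markers in the results below was not tested.

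KE was compared with NT to ask whether the transcripts of the proteins that hold, release and scaffold RAF differ when BRAF KE is expressed from a plasmid. Of the 10 genes, Ywhag and Pebp1 were upregulated, Ywhah, Ywhae and Ywhaq were downregulated, and 5 did not pass an adjusted p of 0.05. The test was limma on log2(normalized count + 1) with Benjamini-Hochberg adjustment over 15280 genes. In that comparison 51.3% of all tested genes were called, 25.3% as higher and 26% as lower in KE, so 5 of 10 is close to the background. Among the 6432 tested genes with a mean of at least 1000, a level that all 10 reach, 58.1% were called, 28.9% as higher and 29.2% as lower. The median absolute log2FC was 0.20 over the 10 genes against 0.30 over all tested genes, which include scarcer genes and were not matched for level. The ranges of KE and NT were separate for 5 of the 10, against 59.9% of all tested genes and 65.5% of those with a mean of at least 1000.

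**Figure D1:**
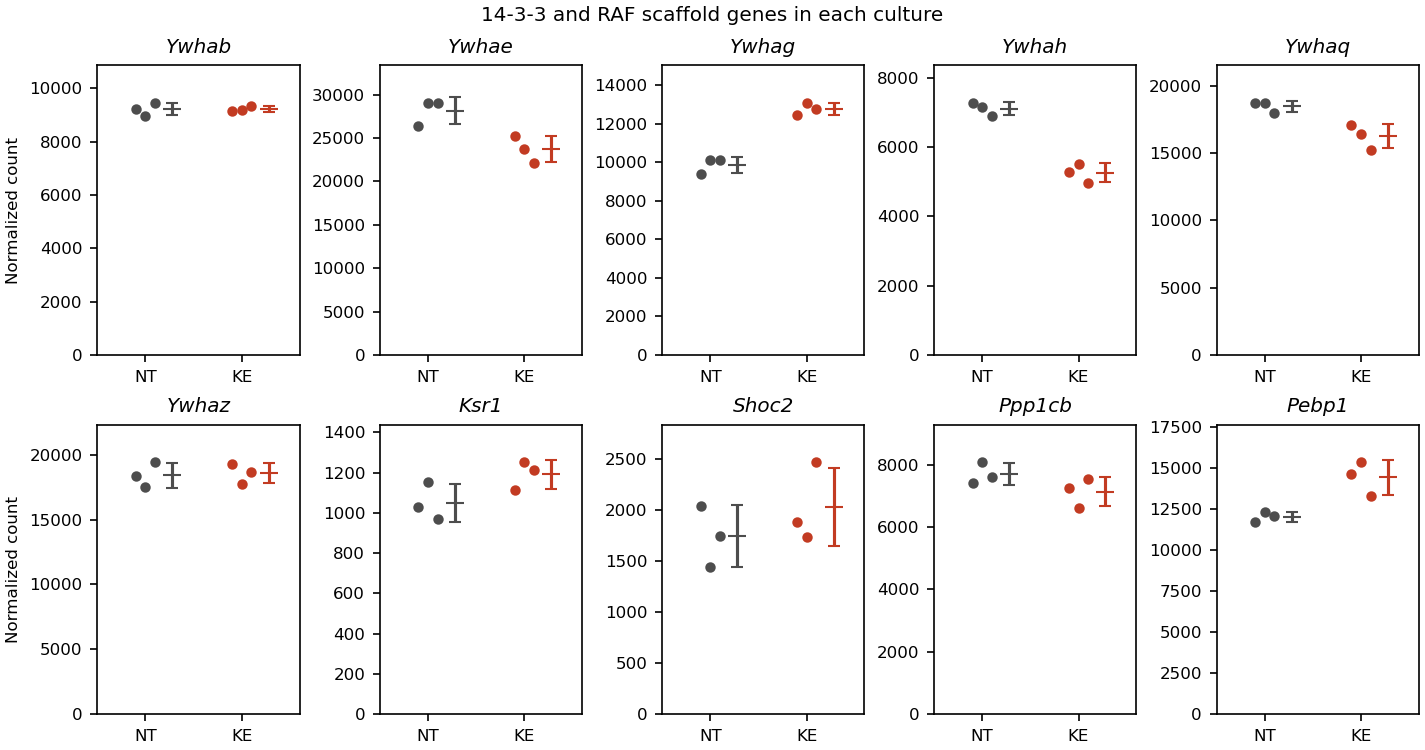
Normalized count (vertical axes, each from 0) of the 10 genes in the 3 NT cultures (grey) and the 3 KE cultures (red); points are cultures and bars are mean ± SD. The groups do not overlap for Ywhae, Ywhag, Ywhah, Ywhaq and Pebp1, and they overlap for the other 5.

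Among the 6 abundant 14-3-3 genes, the largest rise was that of Ywhag (ENSMUSG00000051391), which encodes the gamma isoform (GRCm39 chromosome 5, minus strand, 135935938 to 135965086). The KE replicates measured 12455, 13067 and 12734 normalized counts and the NT replicates 9385, 10095 and 10087. Every KE culture was above every NT culture, with little spread in either group. The mean was 12752 ± 306 in KE and 9856 ± 408 in NT (SD, n = 3 each), and limma gave a log2FC of 0.37 ± 0.055 (SE) with an adjusted p of 1.9e-04. Although this was the largest rise among these 6, only 58.3% of all tested genes, not matched for level, had a smaller absolute log2FC.

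Ywhah (ENSMUSG00000018965), which encodes the eta isoform, moved in the opposite direction. It lies on the same chromosome, on the plus strand from 33176114 to 33185311, and like Ywhag its canonical transcript has 2 exons. Counts were 5289, 5517 and 4964 in KE and 7266, 7155 and 6899 in NT. All KE values were lower than all NT values. By limma the log2FC was -0.44 ± 0.057 (SE) at an adjusted p of 8.7e-05, the largest absolute change of the 10 genes. The ratio of Ywhag to Ywhah within a culture was 2.35, 2.37 and 2.57 in KE and 1.29, 1.41 and 1.46 in NT. A scaling factor shared by all genes of a culture cancels out of it. That ratio was 1.75 times as high in KE. It sets the largest rise against the largest fall, so its groups were bound not to overlap. Its exact permutation test (two-sided p = 0.1, the smallest that 3 against 3 can give) therefore adds nothing to the separate results. These closest paralogs of the 6 by coding sequence had the largest root mean square difference of all pairs among the 10 genes, at 0.41 on centred log2 values over the 6 cultures. That difference largely restates their log2FC, the highest and the lowest of the 10.

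Since these 2 paralogs changed in opposite directions, sequence from the 250 bases before the start of each canonical transcript is shown, on the strand of the gene and from GRCm39. For Ywhag it is the 122 bases nearest the start, chr5:135963454-135963575 on the minus strand, since the 128 before them are also untranslated exon of other Ywhag transcripts. For Ywhah it is the whole window, chr5:33175864-33176113 on the plus strand. Capitals mark GGGCGG, the core that SP1 recognises, and TGACGTCA, the full cyclic AMP response element, searched on both strands so that CCGCCC also counts as an SP1 core.
Ywhag: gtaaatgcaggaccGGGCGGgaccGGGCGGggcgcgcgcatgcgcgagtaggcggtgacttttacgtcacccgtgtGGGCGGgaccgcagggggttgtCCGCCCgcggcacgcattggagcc
Ywhah: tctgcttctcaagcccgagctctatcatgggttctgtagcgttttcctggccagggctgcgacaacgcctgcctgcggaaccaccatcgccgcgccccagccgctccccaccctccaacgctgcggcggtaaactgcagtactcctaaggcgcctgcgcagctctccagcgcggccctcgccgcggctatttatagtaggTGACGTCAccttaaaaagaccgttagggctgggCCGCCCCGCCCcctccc
The Ywhag window has 4 SP1 cores, all in the stretch shown, and no full cyclic AMP response element. The Ywhah window has 1 full cyclic AMP response element and 2 SP1 cores, which overlap each other. Of 21770 promoters of protein-coding genes cut in the same way, 36.3% hold at least 1 SP1 core and 1.69% a full cyclic AMP response element. All 10 genes described here have between 1 and 5 SP1 cores, and Ywhah alone of the 10 has the full element. The shorter element TGACG, which the full one contains on both strands, is in 4 of the 10, Ywhag with 1 match and Ywhah with 2 among them, and in 18% of all promoters. The letters CCGGAAG of an ETS site occur in 6.89% of promoters and TGANTCA of an AP-1 site in 6.17%, and neither is in any of the 10 windows. GC content of the full windows was 59.6% for Ywhag and 64.8% for Ywhah, and 53.2% was the median over all promoters. These matches describe the letters only, and binding was not measured.

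The epsilon and theta isoforms were lower in KE by smaller amounts. Ywhae (ENSMUSG00000020849, plus strand of chromosome 11, 75623695 to 75658554), which had the highest normalized count of the 6, was 25258.5, 23789 and 22181 in KE and 26358, 29041 and 29032 in NT. The groups did not overlap, but the highest KE culture and the lowest NT culture were close. By limma the log2FC was -0.25 ± 0.067 (SE) at an adjusted p of 0.01. Ywhaq (ENSMUSG00000076432, minus strand of chromosome 12, 21439749 to 21467787) encodes theta, first described in T cells, and was 17072, 16468 and 15273 in KE against 18736, 18715 and 18024 in NT. Again each KE value was below each NT value. Its log2FC was -0.19 ± 0.059 (SE), with an adjusted p of 0.021 from limma. The Ywhaq call was lost without KE replicate 3 (log2FC -0.14, adjusted p = 0.067), without NT replicate 1 (-0.18, adjusted p = 0.056), without NT replicate 2 (-0.18, adjusted p = 0.061) and without the variance trend (adjusted p = 0.061), while over all alternatives its adjusted p ranged from 0.0018 to 0.067.

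The beta and zeta isoforms, among the first 14-3-3 proteins found to bind RAF, were not called. Ywhab (ENSMUSG00000018326, plus strand of chromosome 2, 163836007 to 163860509) was 9142, 9182 and 9332 in KE and 9235, 8977 and 9447 in NT. The means were all but equal at 9219 ± 100.4 and 9219.6 ± 235 (SD, n = 3 each), and the 95% interval of its log2FC ran from -0.11 to 0.11. Ywhaz (ENSMUSG00000022285, minus strand of chromosome 15, 36770975 to 36797340) was 19297, 17771 and 18649 in KE and 18331, 17522 and 19420.1 in NT. The groups were interleaved, and the interval of its log2FC was -0.12 to 0.14. Of all pairs among the 10 genes, Ywhab and Ywhaz had the smallest root mean square difference over the 6 cultures, 0.043 on centred log2 values.

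The seventh 14-3-3 gene, Sfn, encodes the sigma isoform, known from epithelia and as a p53 target, and was placed among the other RAF regulators rather than the 10. It was scarce, at 118, 109 and 138 in KE and 50.5, 45.5 and 47.8 in NT. Every KE value was far above every NT value. Its log2FC of 1.32 ± 0.17 (SE), with an adjusted p of 8.1e-05 from limma, was larger than that of any of the 6 abundant isoforms.

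Summed over the 6 abundant isoforms, the 14-3-3 normalized count was 88513, 85794 and 83134 in KE and 89312, 91504 and 92908 in NT. The KE mean of 85814 ± 2689.6 was 0.941 of the NT mean of 91241 ± 1813 (SD, n = 3 each). The KE and NT sums did not overlap (exact permutation test, two-sided p = 0.1), though the highest KE culture and the lowest NT culture differed by less than 1 SD of either group. The share of each isoform in this sum was also compared. A fall in the share of any isoform raises the shares of others, so these are not 6 separate results. The share of Ywhag was 14.1%, 15.2% and 15.3% in KE and averaged 10.8% ± 0.27 in NT (SD, n = 3). The share of Ywhah was 6.13% ± 0.26 in KE against 7.79% ± 0.36 in NT (SD, n = 3 each), and that of Ywhae was 27.6% ± 0.93 and 30.8% ± 1.17. The mean share of Ywhaq was 19.0% in KE and 20.3% in NT, with the highest KE culture at 19.29% and the lowest NT culture at 19.40%. None of the shares of Ywhag, Ywhah, Ywhae or Ywhaq overlapped between groups, and each gave an exact permutation p of 0.1, two-sided, the smallest possible here (0.15 after Benjamini-Hochberg adjustment over the 6 isoforms). The shares of Ywhab (means of 10.8% and 10.1%) and Ywhaz (21.6% and 20.2%) overlapped, with an exact permutation p of 0.2 for each. For Ywhab this depends on the measure, since its log2 ratio to the geometric mean of the 6 isoforms did not overlap (means of -0.47 in KE and -0.56 in NT, exact permutation p = 0.1). Both differences in share also leaned on single cultures. That of Ywhab, 0.65 percentage points, fell to 0.41 without KE replicate 3, and that of Ywhaz, 1.46, fell to 0.93 without NT replicate 2.

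**Figure D2:**
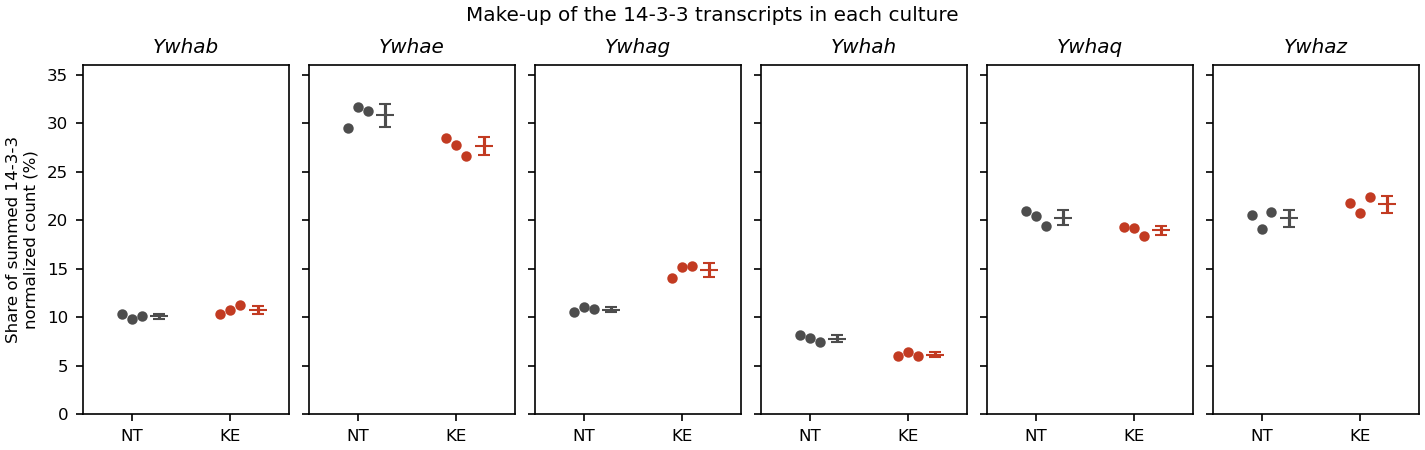
Share of each 14-3-3 isoform in the summed 14-3-3 normalized count (vertical axis, percent) in the 3 NT cultures (grey) and the 3 KE cultures (red), with mean ± SD. Ywhag takes a mean of 14.9% in KE and 10.8% in NT, while Ywhae and Ywhah take less in KE.

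Levels of different genes were compared per kilobase of the canonical transcript. In NT, Pebp1 was highest at 9695 normalized counts per kilobase, followed by Ywhaq (8417), Ywhae (7066), Ywhaz (5953), Ywhah (3926), Ywhab (3059), Ywhag (2034), Ppp1cb (1292), Shoc2 (228) and Ksr1 (188). Neighbours in this order did not overlap over the 3 cultures, except Shoc2 and Ksr1. In KE, Ywhaz (6001) and Ywhae (5961) overlapped, as did Ywhab (3059) and Ywhah (2904), and Ywhag at 2632 remained below them. With the union of all exons as the length, Ywhae ranked above Ywhaq and Ywhag above Ywhab in both groups, and Ywhag also above Ywhah in KE, so the order of those neighbours depends on the gene model. In either case the transcripts of the 6 abundant 14-3-3 genes were far above those of Ksr1 and Shoc2 per unit of length.

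Among the 10 genes, Pebp1 was the only one outside the 14-3-3 family to be called. Pebp1 (ENSMUSG00000032959, minus strand of chromosome 5, 117420717 to 117425690) was 14629, 15338 and 13285 in KE and 11688, 12292 and 12084 in NT. Every KE culture exceeded every NT culture. The mean was 14417 ± 1043 in KE and 12022 ± 307 in NT (SD, n = 3 each), and the log2FC was 0.26 ± 0.063 (SE), with an adjusted p of 0.0052 from limma. The call held under every alternative tried, with adjusted p between 0.0017 and 0.031.

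The scaffold gene Ksr1 (ENSMUSG00000018334, minus strand of chromosome 11, 78904266 to 79037308) had the lowest counts of the 10, at 1112, 1251 and 1213 in KE and 1027, 1151 and 969 in NT. The lowest KE culture lay below the highest NT culture. Its log2FC was 0.19 (95% interval 0.0053 to 0.37, adjusted p = 0.08 from limma), and without NT replicate 2 it was 0.25 with an adjusted p of 0.029, in a range of 0.029 to 0.25 over all alternatives. Its paralog Ksr2, known mainly from brain and energy balance, was scarce at 30.8, 33.8 and 47.1 in KE and 28.7, 19.7 and 36.2 in NT and was not called (adjusted p = 0.27 from limma).

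The SHOC2 complex was measured as its leucine-rich repeat scaffold, its small GTPase and its phosphatase. Shoc2 (ENSMUSG00000024976, plus strand of chromosome 19, 53932303 to 54025049) varied most among the 10 genes, at 1883, 1738 and 2468 in KE and 2044, 1438 and 1746 in NT, with coefficients of variation of 19% and 17.4%. The groups overlapped, and the 95% interval of its log2FC, -0.09 to 0.53, still allows a rise larger than that of Ywhag. Mras, the RAS-related partner of SHOC2, was 3678, 3288 and 3259 in KE and 2420.0, 2492 and 2506 in NT. All KE cultures were higher, with a log2FC of 0.46 ± 0.062 (SE) and an adjusted p of 1.1e-04 from limma.

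Ppp1cb (ENSMUSG00000014956, plus strand of chromosome 5, 32603063 to 32674777), which encodes the beta catalytic subunit of PP1, was 7261, 6616 and 7534 in KE and 7418, 8077 and 7607 in NT. The groups overlapped and the gene was not called (log2FC -0.11, 95% interval -0.25 to 0.03, adjusted p = 0.17 from limma). The other catalytic subunits were both lower in KE, Ppp1cc with a log2FC of -0.45 (adjusted p = 2.5e-05 from limma) and Ppp1ca with one of -0.20 (adjusted p = 0.011 from limma). The summed count of the 3 catalytic genes was 19614 ± 81.2 in KE against 23130.1 ± 454 in NT (SD, n = 3 each). Within that sum, the share of Ppp1cb was 37.2%, 33.8% and 38.2% in KE and 32.7%, 34.2% and 33.0% in NT. One KE culture, replicate 2, lay within the NT range, and the exact permutation test gave a two-sided p of 0.2.

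Braf was also set against these transcripts. The ratio of Braf to the summed 14-3-3 normalized count within a culture was 0.396, 0.407 and 0.493 in KE, so Braf stayed below the sum, and the mean ratio was 44.1 times as high as in NT. Relative to NT, the corresponding ratio was 36.1 times as high for Ksr1 as the denominator, 35.5 times for Shoc2 and 34.7 times for Pebp1. Braf itself was 41.4 times as high, and the table does not separate plasmid from chromosomal transcripts.

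**Figure D3:**
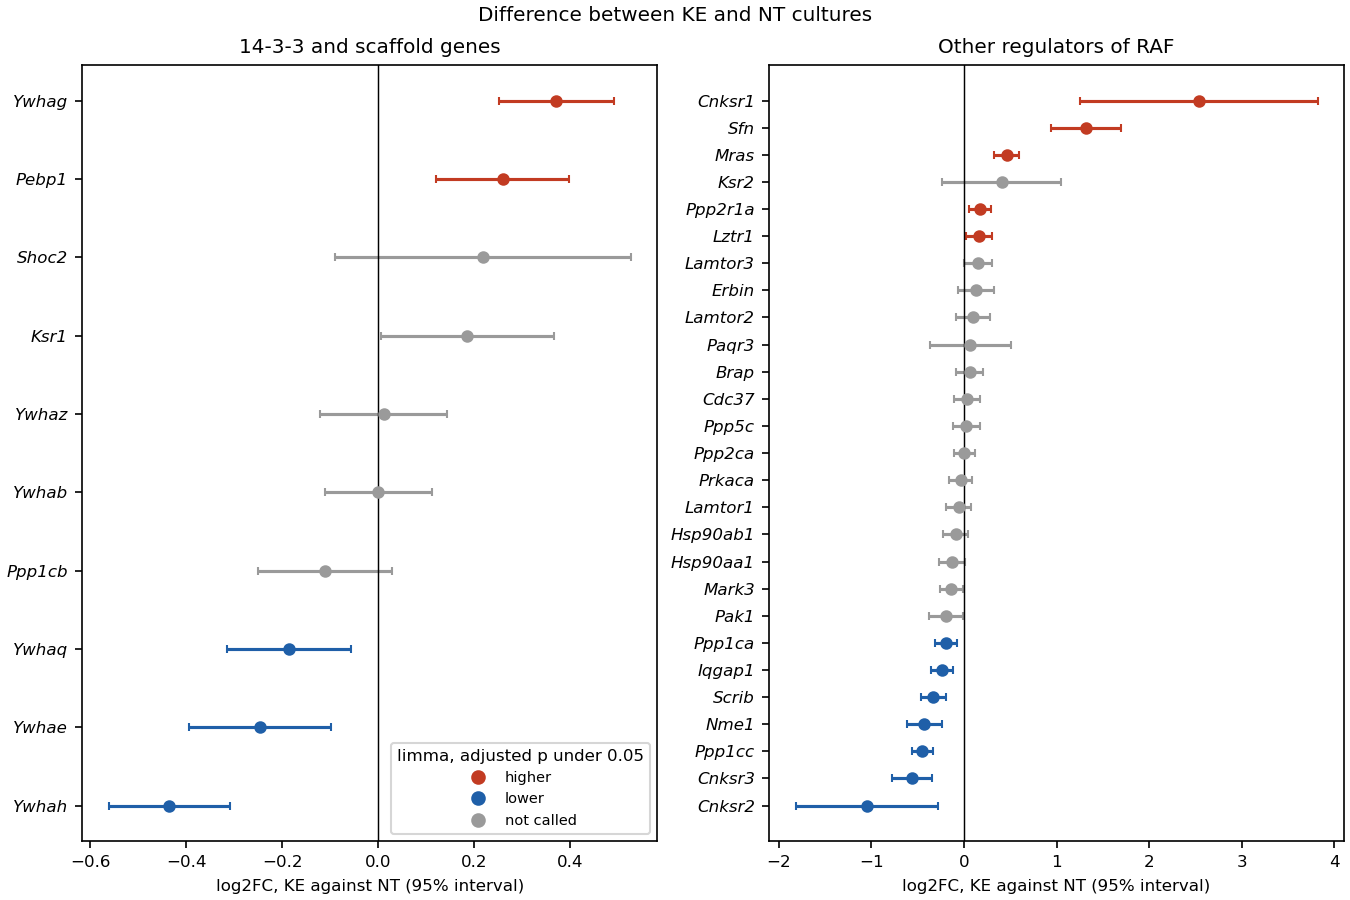
Log2FC of KE against NT with 95% interval from limma (horizontal axes, different scales) for the 10 genes (left) and 27 other regulators of RAF (right), with genes called higher in red, lower in blue and not called in grey. The 10 genes lie between -0.44 and 0.37, and Cnksr1, Sfn and Cnksr2 lie farthest from 0 on the right.

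A list of 27 other genes that act on RAF or its scaffolds was compared in the same fit. Of these, 5 rose, 7 fell and 15 were not called, with a median log2FC of 0.00, against 0.00 over all tested genes. Over all tested genes 25.3% were called higher and 26% lower, and nothing particular to the list is read from its counts. Besides Sfn and Mras, the genes called higher included Cnksr1 (log2FC 2.54), a connector scaffold, and Ppp2r1a (0.17), the scaffolding subunit of protein phosphatase 2A. The fifth, Lztr1, an adaptor for the breakdown of RAS proteins, was just past the threshold (log2FC 0.16, adjusted p = 0.049 from limma) and was named after its value was seen. Cnksr1 was barely expressed, at 12.6, 17.5 and 32.4 in KE and 6.46, 2.00 and 0.92 in NT. It passed the filter on a mean of 10 only through its KE values (mean of 20.8, against 3.13 in NT), so nothing is read from its call. Cnksr2, called lower (log2FC -1.05), was also barely expressed, at 10.6, 7.33 and 11.9 in KE and 26.5, 17.0 and 21.5 in NT. It passed the same filter only through its NT values (mean of 21.6, against 9.93 in KE), so nothing is read from its call either. Falls were found for Cnksr3 (-0.56), of the same connector family, and for Nme1 (-0.43), a nucleoside diphosphate kinase, besides the PP1 subunits. The HSP90 genes and Cdc37, the chaperones that fold RAF, were not called. The number higher was 3 in place of 5 without KE replicate 1, without KE replicate 2 or without NT replicate 1.

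Among the core genes of the cascade named here, Map2k1, which encodes MEK1, rose by a log2FC of 0.70, Araf, a RAF kinase gene, by 0.32 and the RAS gene Hras by 0.19, whereas Nras (-0.48) fell. Of 20 genes whose proteins are well-known 14-3-3 clients, 3 rose, 7 fell and 10 were not called (median log2FC -0.01), where 51.3% of all tested genes were called, so the list as a whole is near the background. The falls included all 3 CDC25 phosphatases, which drive entry into cell cycle phases and are held in check by 14-3-3: Cdc25b (-1.08), Cdc25c (-0.91) and Cdc25a (-0.80). Camkk2 (-0.61), a calcium-dependent kinase, also fell. The rises were those of Akt1s1 (0.56), an inhibitory subunit of mTORC1, Wwtr1 (0.25), which encodes TAZ, and Foxo3 (0.23).

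**Figure D4:**
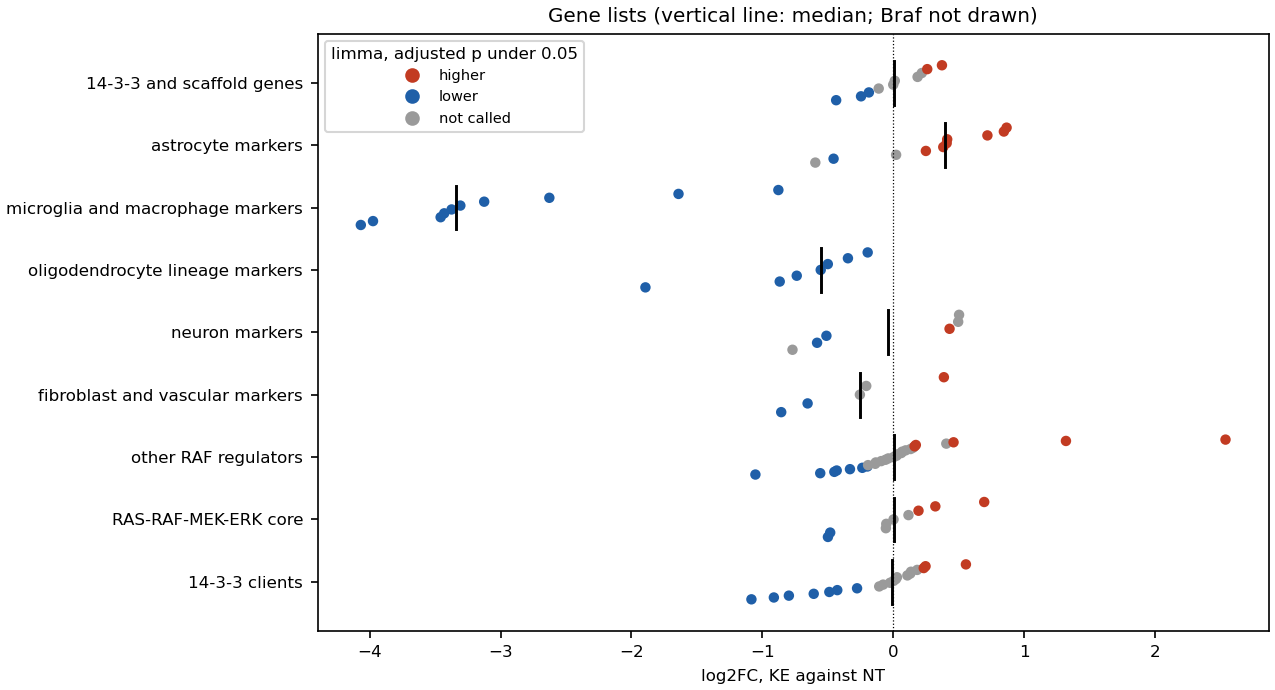
Log2FC of KE against NT (horizontal axis) for each tested gene of 9 lists (vertical axis), coloured by call, with the list median as a vertical line and Braf left out. The 14-3-3 and scaffold genes have a median absolute log2FC of 0.20, close to the 14-3-3 clients at 0.21 and the other RAF regulators at 0.16, whereas the microglia and macrophage markers have a median log2FC of -3.34.

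Genes whose pattern over the 6 cultures was most like Ywhag and Ywhah were sought among 12071 other genes with a mean of at least 100, by the root mean square difference of centred log2 values. Closest to Ywhag were Ogdhl (0.0172), Ddit4l (0.0186) and Ascc1 (0.0209), with log2FC of 0.36, 0.39 and 0.36. Closest to Ywhah were Mob3a (0.0191), Naa40 (0.0205) and Gm20683 (0.0236), with log2FC of -0.46, -0.42 and -0.40. Within the 10 genes, Pebp1 was nearest to Ywhag (0.0816) and Ywhaq to Ywhae (0.0663).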

How the data were processed

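mRNA libraries (TruSeq stranded mRNA) of 6 astrocyte cultures, 3 KE and 3 NT, were analysed, and groups and replicate numbers were taken from the sample labels. No source says that replicates came from separate animals, so p-values measure the spread between these cultures. The authors trimmed reads with Trim Galore, aligned them with STAR and quantified genes with Salmon, and they deposited a normalized signal per gene. Counts divided by DESeq2 size factors were presumed, but a single factor per culture is not certain. The supplemental methods give GRCm39 with Gencode vM28 for mouse, whereas the submitters' processing notes list GRCh38, which the mouse identifiers contradict. Batches are said to have been adjusted for but are not named, so none was modelled. At most 77.6% of low values came within 0.1 of whole reads, so reads were not recovered, no count test was run, and approximate depth is each total divided by its most frequent low value.

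Log2(normalized count + 1) entered limma (version 3.58.1, R 4.3.3), modelling group alone and letting variance follow expression, in the 15280 genes averaging at least 10. Fold changes on that scale are understated where expression is low. P-values are two-sided and Benjamini-Hochberg adjusted over all tested genes, and the fit was tested on simulated data. Coordinates, transcripts, coding sequences and promoters came from Gencode vM39 on GRCm39, and all 10 identifiers were found there. Coding sequences were aligned with mafft 7.526, and similar transcripts were sought with blastn 2.17.0. The genes and lists were chosen with earlier results of these data known. All 10 genes are given in full, and from other lists at most 4 called genes a direction by absolute log2FC, besides Sfn, Ksr2, Mras, Ppp1ca and Ppp1cc. Alternatives were other pseudocounts (0.5 and 5), filters and scalings, no variance trend, the replicate number as a block and leaving out each culture. Values of some single genes, and counts that include them in the list of core cascade genes, were left out.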

Additional observations from a re-analysis of the deposited data

How the results depend on the processing

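Under the alternatives listed above, recomputed for the 10 genes, Braf and the counts of each list, no called log2FC of these genes changed sign, and their calls, and counts to within 1.5 times, held except as follows. Counts within that limit can still lose a named gene: 4 other RAF regulators rose in place of 5 with 75th percentile scaling, no filter or a mean of at least 50, and 1 of the rises of Map2k1, Araf and Hras was lost without KE replicate 1, NT replicate 1 or NT replicate 3. The sums and shares of 3 against 3 cultures cannot pass 0.05 by permutation, so nothing is read from their staying uncalled. Ywhab and Ywhaz, never called, were near 0 with either sign (-0.03 and -0.07 with quantile normalization). Without the variance trend, Ywhaq kept a log2FC of -0.19 but lost its call, and 4 oligodendrocyte lineage genes fell in place of 7, 2 neuron genes rose in place of 1, 0 fibroblast and vascular genes rose in place of 1, and 3 other RAF regulators rose in place of 5. With quantile normalization 2 neuron genes and 3 other RAF regulators rose. With no filter, or with a mean of at least 50, 1 fibroblast and vascular gene fell in place of 2. Leaving out each culture in turn gave a log2FC of -0.22 to -0.14 for Ywhaq (call lost without KE replicate 3, NT replicate 1 or NT replicate 2), 0.13 to 0.25 for Ksr1 (called without NT replicate 2), 0.07 for Shoc2 without KE replicate 3 to 0.34 without NT replicate 1, and -0.15 to -0.06 for Ppp1cb (-0.06 without KE replicate 2), the last pair never called. Without NT replicate 2, Shoc2 was at 0.09. It gave 4 to 7 oligodendrocyte lineage genes lower (4 without KE replicate 1, KE replicate 3 or NT replicate 2), 1 to 2 neuron genes higher (2 without KE replicate 1), 0 to 1 fibroblast and vascular genes higher (1 without KE replicate 1 or NT replicate 1) and 1 to 2 lower (1 without NT replicate 2), and 3 to 4 other RAF regulators higher. The causes were not tested. With the replicate block, 8046 genes were called in place of 7844, the log2FC of Ywhag was 0.37 (limma, adjusted p = 2.8e-04), and no call among the 10 genes changed. Deviations of same-numbered KE and NT cultures had r of 0.059 to 0.066 across genes, against -0.05 to -0.01 for other numbers. Each culture was thus most like its own number, but under the 0.1 required in every pair, so pairing is a hint from the data only. Summing Ywhaq, Ywhaz, Ywhah and Pebp1 with their near-identical copies (Cdk5rap2 left out), chosen after seeing the data, changed no call. Quantile normalization gave a median log2FC of 0.029 over all genes, against 0.0018. Depth, lowest in KE replicate 2, limits scarce genes such as Cnksr1 and Cnksr2.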
